A study of Rattus norvegicus with 12 samples.

Results

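Messenger RNA of glycolytic enzymes and of target genes of the hypoxia-inducible factors (HIFs) was followed in rat cardiomyocyte cultures exposed to SIN-1. The 33 genes were listed by name, and a gene was kept where a probe of the deposited table carried its symbol and no other. Where a gene had several such probes the one with the highest mean over 12 arrays would have been taken, but each kept gene had 1. This left 27 of 33 genes, among 18166 named genes in all. Bnip3, Tpi1, Gapdh, Eno1, Pkm and Pgam1 had no probe of this kind and are not analysed here.

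The HIFs are transcription factors made of an oxygen-labile alpha subunit, encoded by Hif1a or Epas1, and a stable partner. Prolyl hydroxylases encoded by Egln1, Egln2 and Egln3 mark the alpha subunit for destruction when oxygen is plentiful, so the factor is governed largely at the protein level, which arrays do not measure. When stabilised it binds short sites in the promoters and enhancers of genes for glucose breakdown, lactate export, blood vessel growth and mitochondrial turnover. In the heart, glycolysis supplies a larger share of energy in fetal life and under oxygen shortage than in the resting adult muscle.

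SIN-1 (3-morpholinosydnoimine in the labels) is a donor of peroxynitrite, an oxidant formed from nitric oxide and superoxide. Wild-type primary rat cardiomyocytes, kept in DMEM/F12 medium with fetal bovine and horse serum, were left as control or given SIN-1 for 70 min, 4 h or 8 h, with 3 arrays in each of the 4 groups. The labels give neither a dose, nor a vehicle, nor a culture time for the control, and nothing says whether replicates came from separate animals, so p-values measure the spread between these samples. One set of 3 control arrays served all 3 treated times. Expression is given on the log2 scale.

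The arrays were checked against markers of the labelled cell type. In control arrays the sarcomere genes Myh6, Myh7, Actn2 and Ttn and the calcium release channel gene Ryr2 had means of 3.99, 3.64, 4.25, 4.46 and 4.21, close to the median of 4.33 of probes with no annotation, and Mybpc3 and Nppa stood at 4.42 and 4.76. The other 5 of 12 measured cardiomyocyte markers were higher, with the troponin genes Tnni3, Tnnt2 and Tnnc1 at 5.45, 5.99 and 7.22 and the calcium handling genes Pln and Atp2a2 at 8.16 and 9.52. Of 11 fibroblast markers, 7 had control means from 9.05 for Lum to 13.12 for Vim, with the collagen genes Col1a1 and Col3a1 at 12.75 and 11.95, and Tcf21, Pdgfra, Dcn and Thy1 stood at 4.75, 5.77, 6.17 and 6.28. Of 5 measured smooth muscle and pericyte markers Tagln had a mean of 12.40 and Pdgfrb of 10.38, and Cspg4, Rgs5 and Myh11 stood at 7.24, 5.87 and 5.59. The myosin heavy chain, alpha-actinin, titin and Ryr2 messages were thus near background, and Mybpc3 and Nppa little above it. Only the other 5 of the 12 cardiomyocyte markers stood higher. The results below describe the RNA of these whole cultures. The mean over 11 fibroblast markers ran from 9.41 to 9.44 in control and from 9.07 to 9.19 at 70 min, with 4 of the 11 lower and 0 higher by limma at an adjusted p under 0.05, where 14.6% of all genes were called. The 4 were Lum at -1.42, Dcn at -1.05, Col3a1 at -0.41 and Ddr2 at -0.28 in log2 fold change. The other 7 ran from -0.20 for Pdgfra to 0.24 for Tcf21, with Vim at -0.0035 and Col1a1 at 0.01. Over 12 cardiomyocyte markers the mean ran from 5.47 to 5.53 in control and from 5.46 to 5.73 at 70 min, with 1 of 12 higher. At 70 min 1 of 6 endothelial markers was lower and 1 of 5 smooth muscle markers was higher, counts near that share of all genes, and 0 of 8 macrophage markers passed by limma (2 at an unadjusted p under 0.05). At 4 h the fibroblast mean ran from 9.26 to 9.37, and at 8 h from 9.39 to 9.52. The mean over 5 smooth muscle and pericyte markers ran from 8.25 to 8.32 in control and lay wholly lower at 4 h, from 8.12 to 8.16, where the pericyte receptor gene Pdgfrb had fallen by 0.49 (SE 0.06; limma adjusted p = 6.14e-05). At 4 h Rgs5 stood at -0.40, Cspg4 at -0.06, Tagln at 0.07 and Myh11 at 0.08 against control, none of them called. The mean over these markers ran from 8.22 to 8.36 at 70 min and from 8.30 to 8.33 at 8 h. The part of these shifts in the results was not tested, and in such bulk samples fewer cells of a type and less RNA per cell cannot be told apart. The median over all probes was 5.11 and 5.12 on 70 min replicates 2 and 3 and 5.09 on 4 h replicate 3, against 4.98 to 5.05 on the other arrays.

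After 70 min of SIN-1 the genes moved in both directions. The HIF hydroxylase genes Egln3 and Egln1, the lactate exporter gene Slc16a3, the phosphofructokinase genes Pfkl and Pfkp, the aldolase gene Aldoa and the lactate dehydrogenase gene Ldha rose. The muscle phosphofructokinase gene Pfkm, the enolase gene Eno2 and the HIF targets Ndrg1, Adm and Bnip3l fell. These were 7 higher and 5 lower of 27, or 44.4%, by limma at an adjusted p under 0.05, beside 14.6% of all genes (6.76% higher and 7.81% lower). Among the 27, the 3 treated values lay wholly above or below the 3 control values for 17 genes, or 63.0%, against 31.8% of all genes. The 27 were measured more closely than most genes, with a median SE of 0.10 beside 0.13. When genes with a mean under the median were left out, 24 members remained and 12 were called, among 2749 genes called in all. Over all 18166 genes that number was 2647. The shares called of all genes, here and in later comparisons, thus lie under those of the brighter genes. The median log2 fold change of the 27 was 0.06 beside 0.03 for all genes, so the called members were divided rather than shifted one way. Without control replicate 1 the number called was 7, and without 70 min replicates 2 and 3 and 4 h replicate 3, it was 5. That last fit has 1 array at 70 min, taken to vary like the other groups. In it Egln1 (0.0503), Pfkl (0.108), Aldoa (0.268), Ldha (0.0857), Eno2 (0.114), Ndrg1 (0.0986), Adm (0.216) and Bnip3l (0.287) did not pass. Slc16a3 and Pfkm were called in all 15 alternatives, and Egln3 in the 14 that tested it, since it was not among the brighter genes.

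**Figure D1:**
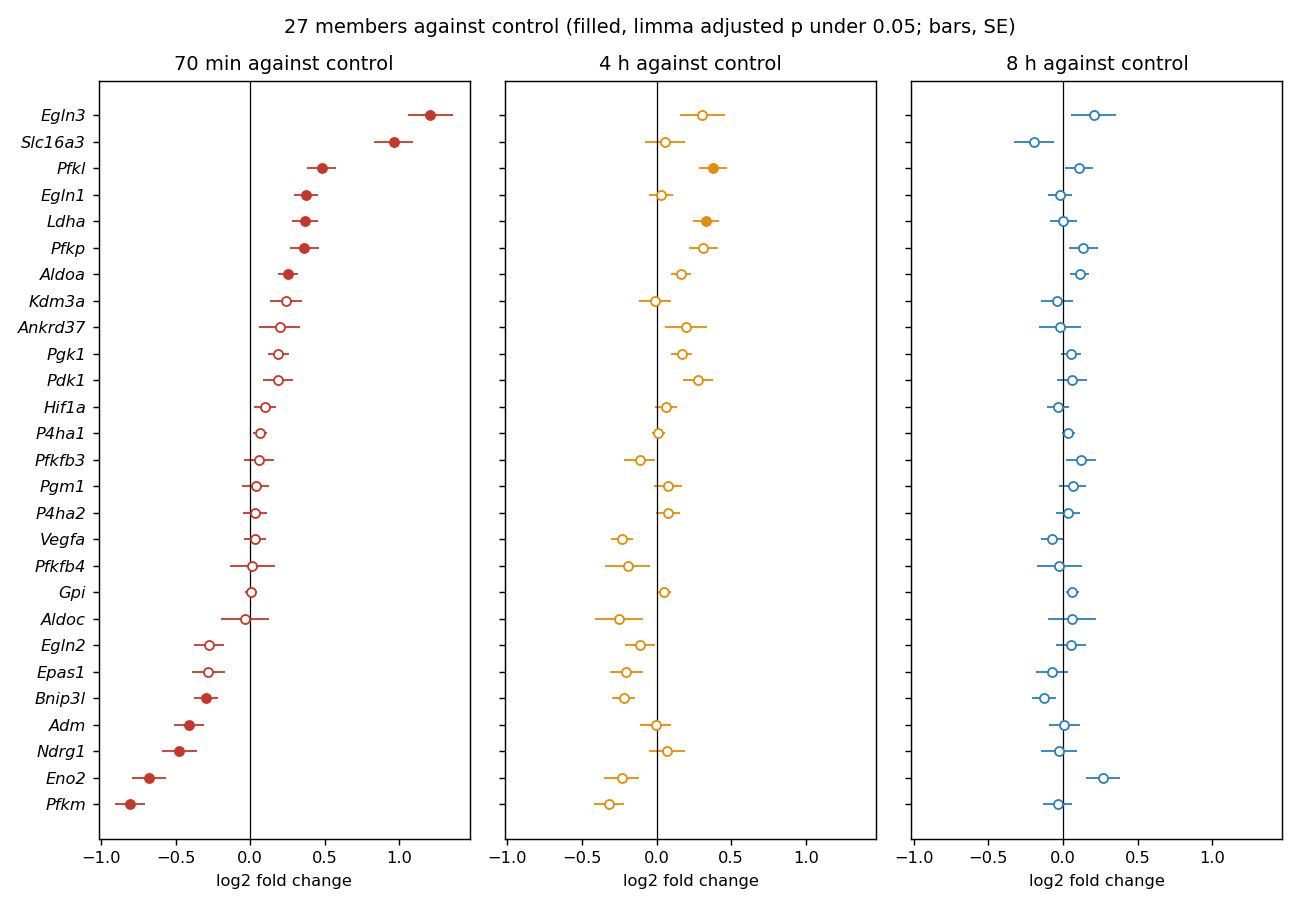
Log2 fold change against control (x axis) of the 27 genes (y axis, ordered by the change at 70 min) at 70 min, 4 h and 8 h, with bars for the SE and filled points for a limma adjusted p under 0.05. Egln3 at 1.21 and Pfkm at -0.81 bound the 70 min panel, 2 points remain filled at 4 h and 0 at 8 h.

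HIF binds around the core letters ACGTG or GCGTG, and promoter windows from RefSeq (build GRCr8), 250 bases before to 50 after an annotated start, were searched for either on both strands, overlapping matches such as CACGTG counting as 1 stretch. Windows were found for 24 of the 27 genes, 28 windows in all since 3 genes had several starts. At least 1 stretch lay in 17 of the 28 windows, or 60.7%, beside 41.6% of all 33469 windows, with no adjustment for base composition. The share was 5 of 9 windows for genes higher at 70 min, 2 of 3 for genes lower and 10 of 16 for genes not called. The windows of 5 genes are shown: Egln3 rose most and its window holds 0 stretches, Pfkl and Pfkm went opposite ways with 2 and 1, Ldha was higher at both 70 min and 4 h and holds 5, and Ankrd37 holds 4 yet was not called at any time. They lie at chr6:77410966-77411265 (minus strand), chr20:10663715-10664014 (plus), chr7:131113849-131114148 (plus), chr1:106507842-106508141 (plus) and chr16:53001257-53001556 (plus), in that order, and capitals mark the matching letters.
Egln3: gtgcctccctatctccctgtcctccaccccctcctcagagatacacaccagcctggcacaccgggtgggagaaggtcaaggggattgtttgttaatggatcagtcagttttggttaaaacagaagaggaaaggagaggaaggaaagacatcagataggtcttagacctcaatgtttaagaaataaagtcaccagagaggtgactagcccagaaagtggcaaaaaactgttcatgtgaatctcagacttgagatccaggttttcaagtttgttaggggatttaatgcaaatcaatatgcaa
Pfkl: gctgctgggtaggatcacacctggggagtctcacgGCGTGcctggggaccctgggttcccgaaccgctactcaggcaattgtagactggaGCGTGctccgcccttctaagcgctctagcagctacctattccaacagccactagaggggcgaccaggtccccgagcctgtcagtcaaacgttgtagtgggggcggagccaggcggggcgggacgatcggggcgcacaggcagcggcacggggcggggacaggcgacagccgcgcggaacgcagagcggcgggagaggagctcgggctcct
Pfkm: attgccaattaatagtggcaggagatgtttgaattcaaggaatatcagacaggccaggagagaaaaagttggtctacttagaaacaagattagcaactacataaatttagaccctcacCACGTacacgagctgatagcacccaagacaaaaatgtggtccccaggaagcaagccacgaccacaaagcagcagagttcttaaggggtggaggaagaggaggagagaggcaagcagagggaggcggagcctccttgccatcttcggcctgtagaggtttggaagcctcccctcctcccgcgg
Ldha: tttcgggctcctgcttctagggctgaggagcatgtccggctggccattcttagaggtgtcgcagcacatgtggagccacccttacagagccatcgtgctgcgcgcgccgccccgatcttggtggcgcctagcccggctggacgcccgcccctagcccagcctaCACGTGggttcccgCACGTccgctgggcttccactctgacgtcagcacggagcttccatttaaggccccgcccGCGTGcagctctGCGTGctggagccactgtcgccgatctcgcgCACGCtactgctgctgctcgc
Ankrd37: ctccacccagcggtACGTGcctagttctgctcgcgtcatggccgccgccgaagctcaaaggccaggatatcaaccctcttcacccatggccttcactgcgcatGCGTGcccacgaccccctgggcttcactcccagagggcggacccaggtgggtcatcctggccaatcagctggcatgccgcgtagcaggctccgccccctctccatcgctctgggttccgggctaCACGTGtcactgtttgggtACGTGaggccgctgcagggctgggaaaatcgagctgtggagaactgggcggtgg
A match is a description of these letters and not a site of binding, and a window without one leaves enhancers and other starts unsearched.

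**Figure D2:**
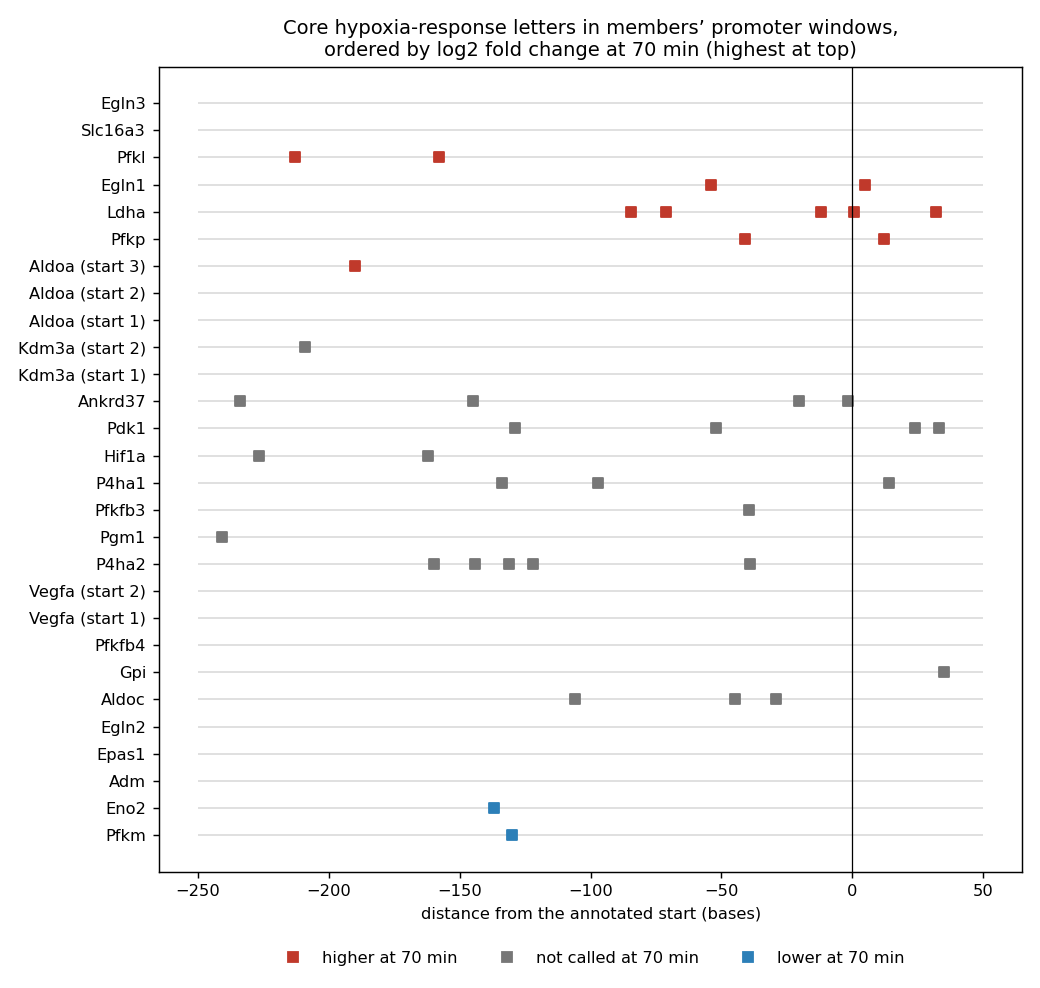
Positions of stretches matching the core letters (squares; x axis, bases from the annotated start) in the 28 windows, ordered from the highest log2 fold change at 70 min at the top to the lowest and coloured by the call. Among genes higher at 70 min, the 2 windows at the top, of Egln3 and Slc16a3, hold 0 stretches. Ldha holds 5, Egln1, Pfkl and Pfkp 2 each, and the windows of Aldoa 0 or 1. Among genes not called at 70 min, P4ha2 holds 5, Pdk1 and Ankrd37 4 each and the others from 0 to 3.

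The messages of the HIF alpha subunits did not pass at any time. Hif1a was 9.35, 9.39 and 9.40 in control, 9.43, 9.44 and 9.56 at 70 min, 9.38, 9.44 and 9.50 at 4 h and 9.16, 9.39 and 9.48 at 8 h. The 70 min values lay just above all control values, and those at the later times overlapped them. The log2 fold change of Hif1a at 70 min was 0.10 ± 0.07 (SE; limma adjusted p = 0.432). Epas1, the alpha subunit gene prominent in endothelium, stood at -0.28 ± 0.11 (SE) at 70 min (limma adjusted p = 0.103), all 3 arrays below control.

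The 3 hydroxylase genes divided. Egln3, the family member most readily induced by hypoxia, was 4.67, 4.96 and 5.04 in control, 6.04, 6.24 and 6.03 at 70 min, 5.12, 5.40 and 5.09 at 4 h, and 4.81, 5.33 and 5.15 at 8 h. Each 70 min array was above every other array of the series. The rise at 70 min was 2.31-fold (log2 fold change 1.21 ± 0.15, SE; limma adjusted p = 3.1e-05), measured from control values that lie near background, where folds are compressed. Egln1, the main oxygen sensor of the family, went from 8.16 ± 0.13 to 8.53 ± 0.06 (SD, n = 3), a log2 fold change of 0.37 ± 0.08 (SE; limma adjusted p = 0.00401). Egln2 stood at -0.27 ± 0.10 (SE) and did not pass (limma adjusted p = 0.0757; 0.0449 with array weights and 0.0428 among the brighter genes).

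In upper glycolysis, which takes glucose to the triose phosphates, 3 of 9 measured genes rose at 70 min and 1 fell. The shares of all genes were 6.76% higher and 7.81% lower. The 3 subunit genes of phosphofructokinase, the committing step of the pathway, went apart. Pfkl, the liver-type subunit, was 7.75, 7.79 and 7.89 in control, 8.25, 8.35 and 8.26 at 70 min, 8.28, 8.09 and 8.20 at 4 h and 8.15, 7.89 and 7.72 at 8 h. Values of Pfkl at 70 min and 4 h were all above control, and those at 8 h overlapped it. Its log2 fold change was 0.48 ± 0.10 (SE; limma adjusted p = 0.00229) at 70 min and 0.38 ± 0.10 (limma adjusted p = 0.0352) at 4 h.

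Pfkm, the muscle-type subunit, was 7.35, 7.32 and 7.48 in control, 6.74, 6.50 and 6.50 at 70 min, 7.09, 7.01 and 7.10 at 4 h and 7.42, 7.44 and 7.18 at 8 h. All 70 min arrays lay under all 4 h arrays, and those lay under all control arrays. Pfkm fell by 0.81 on the log2 scale at 70 min (SE 0.10; 1.75-fold; limma adjusted p = 2.4e-05), and at 4 h it stood at -0.32 ± 0.10 (limma adjusted p = 0.0885; 0.0481 after a further quantile normalization, 0.0485 with each array's median added to the model and 0.0488 among the brighter genes). Pfkp, the platelet-type subunit, was higher by 0.36 ± 0.10 (SE) at 70 min (limma adjusted p = 0.0174), and did not pass when control replicate 1 or 2 (0.0781 and 0.0772) or 70 min replicate 1 (0.0687) was left out. At 4 h Pfkp stood at 0.31 ± 0.10 (0.0923; 0.0475 after a further quantile normalization).

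Aldoa, an aldolase gene, was higher by 0.25 ± 0.07 (SE) at 70 min (limma adjusted p = 0.015). That call ended in 8 of 15 alternatives, among them those without control replicate 1 or 2 (0.0622 and 0.0501) and without 70 min replicate 2 or 3 (0.0536 and 0.0714). Gpi, phosphoglucose isomerase, had the smallest change, 0.01 ± 0.04 (SE; limma adjusted p = 0.957). Pfkfb3 and Pfkfb4, whose products make and remove the activator of phosphofructokinase, stood at 0.06 ± 0.10 and 0.01 ± 0.15, Aldoc at -0.03 ± 0.16 and Pgm1, a phosphoglucomutase gene, at 0.04 ± 0.09 (limma adjusted p = 0.759 to 0.968). Ldha, Aldoa and Pgk1 have processed copies in rodent genomes that may share probe signal.

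In the lower pathway and the handling of its product, 2 of 5 measured genes rose at 70 min and 1 fell, beside 6.76% and 7.81% of all genes. Slc16a3 encodes the monocarboxylate transporter MCT4, which exports lactate. It was 5.77, 6.19 and 6.16 in control, 6.95, 7.08 and 6.96 at 70 min, 6.05, 6.28 and 5.95 at 4 h, and 5.83, 6.03 and 5.68 at 8 h. All 70 min arrays stood above all others. The log2 fold change of Slc16a3 was 0.96 ± 0.13 (SE; 1.95-fold; limma adjusted p = 8.3e-05). Ldha, which reduces pyruvate to lactate, was 8.80, 8.48 and 8.54 in control, 8.97, 8.96 and 8.99 at 70 min, 9.01, 9.05 and 8.75 at 4 h, and 8.57, 8.58 and 8.67 at 8 h. All 70 min values exceeded control, while 1 of the 4 h values fell within the control range. Its log2 fold change was 0.37 ± 0.09 (SE; limma adjusted p = 0.00881; 0.0549 without control replicate 2) at 70 min and 0.33 ± 0.09 (limma adjusted p = 0.0459) at 4 h.

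Eno2, the neuron-type enolase, was 8.38, 8.42 and 8.62 in control, 8.05, 7.76 and 7.58 at 70 min, 8.19, 8.29 and 8.23 at 4 h and 8.97, 8.67 and 8.58 at 8 h. The arrays at 70 min were all under those at 4 h, which were under control, and those at 8 h overlapped control. Eno2 fell by 0.68 at 70 min (SE 0.11; 1.60-fold; limma adjusted p = 0.000557). Its change was -0.42 without the 3 arrays of highest median (0.114). Pgk1, phosphoglycerate kinase, was 9.87, 9.86 and 9.94 in control, 10.24, 9.94 and 10.05 at 70 min, 10.02, 10.14 and 10.02 at 4 h and 10.02, 9.90 and 9.91 at 8 h. Its 4 h arrays were all above control and 1 of its 70 min arrays was not. Pgk1 did not pass at 70 min, with a log2 fold change of 0.19 ± 0.07 (SE; limma adjusted p = 0.0862; 0.0259 without 70 min replicate 2, 0.0108 with each array's median added to the model and 0.0206 without the 3 arrays of highest median). Without 70 min replicate 1 the change of Pgk1 was 0.10 (0.292). Pdk1, whose kinase product restrains entry of pyruvate into the citric acid cycle, stood at 0.18 ± 0.10 (SE; limma adjusted p = 0.254).

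**Figure D3:**
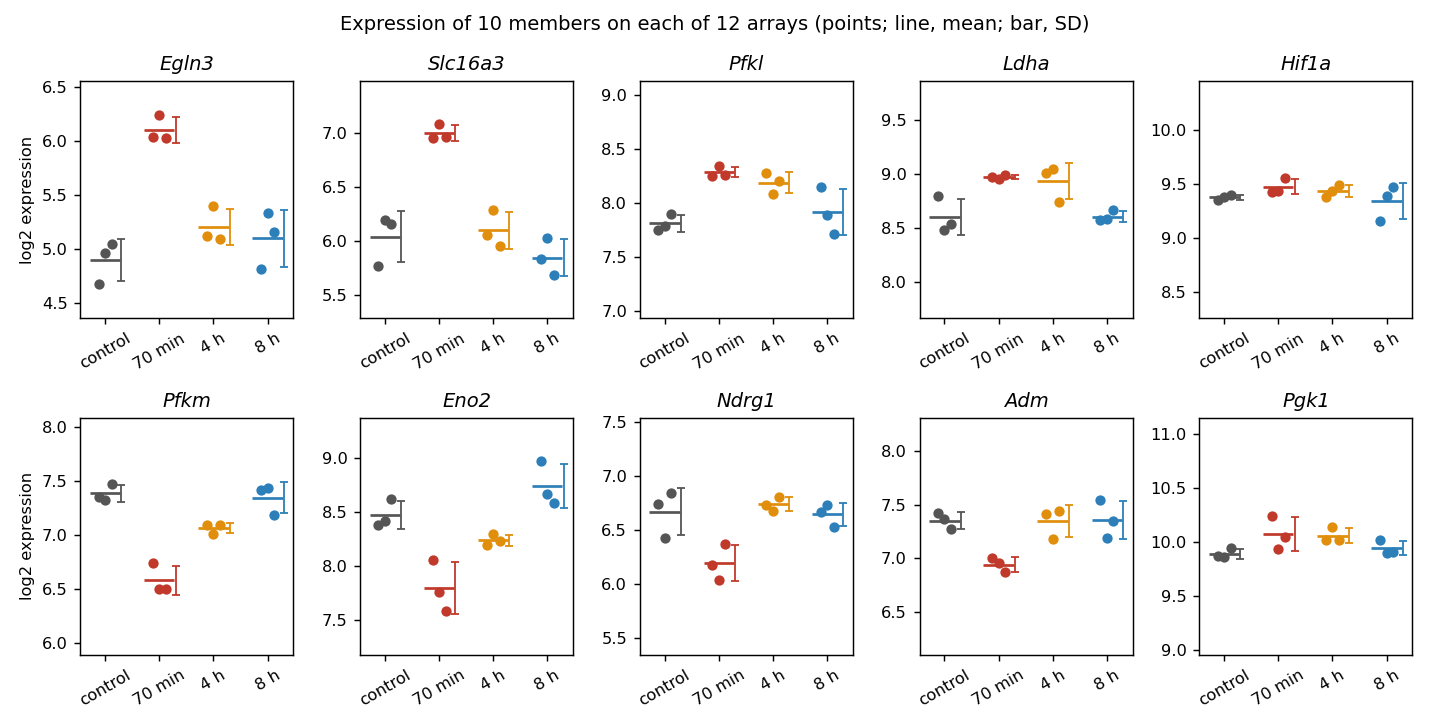
Log2 expression (y axis, each panel spanning the same range) of 10 genes on each array in control and after 70 min, 4 h and 8 h of SIN-1, with points for arrays, lines for means and bars for the SD (n = 3). Egln3 and Slc16a3 peak at 70 min with all 3 arrays above the rest, Pfkm and Eno2 are lowest there, and Hif1a stays between 9.16 and 9.56.

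Among the targets outside metabolism, 3 of 5 measured secreted, stress and mitophagy genes fell at 70 min and 0 rose. Of all genes 7.81% were lower and 6.76% higher at that time. Ndrg1, a gene commonly used as a readout of hypoxia, was 6.74, 6.43 and 6.85 in control, 6.18, 6.04 and 6.37 at 70 min, 6.73, 6.68 and 6.81 at 4 h, and 6.67, 6.74 and 6.53 at 8 h. All 70 min arrays lay below control. The log2 fold change of Ndrg1 was -0.48 ± 0.12 (SE; limma adjusted p = 0.0115), and it did not pass when control replicate 1 or 3 (0.0564 and 0.0722) or 70 min replicate 2 (0.062) was left out.

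Adm, which encodes the vasodilator peptide adrenomedullin, was 7.42, 7.36 and 7.27 in control, 7.001, 6.96 and 6.87 at 70 min, 7.42, 7.18 and 7.44 at 4 h and 7.54, 7.19 and 7.35 at 8 h. Its 70 min arrays were below all others. The change of Adm was -0.41 ± 0.10 (SE; limma adjusted p = 0.0113; 0.0586 without control replicate 1 and 0.0522 without 70 min replicate 3). Bnip3l, a mitophagy receptor gene, fell by 0.30 (SE 0.08; limma adjusted p = 0.0178), which did not hold without control replicate 1 or 2 (0.0767 and 0.0554) or 70 min replicate 2 (0.105), with a constant prior variance (0.0625) or with each array's median added to the model (0.0554).

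Vegfa, the vascular growth factor gene, stood at 0.03 ± 0.07 (SE; limma adjusted p = 0.838) at 70 min, and Ankrd37 at 0.20 ± 0.14 (limma adjusted p = 0.399). None of the 3 hydroxylase targets passed at 70 min. P4ha1 and P4ha2, subunit genes of the collagen prolyl hydroxylase, were at 0.07 ± 0.05 and 0.03 ± 0.08, and Kdm3a, a histone demethylase gene, at 0.24 ± 0.11 (SE; limma adjusted p = 0.381, 0.85 and 0.155).

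At 4 h most of these calls had gone. An unadjusted limma p under 0.05 was still found for 9 of the 27, in both directions, beside 2746 of 18166 genes. Pfkl and Ldha were still higher and 0 of the 27 lower, 7.41% beside 3.85% of all genes (2.08% higher and 1.77% lower). Among the brighter genes alone 3 of 24 members were called and 846 genes in all, more than the 699 called when all genes were tested. The 4 h and control arrays did not overlap for 11 genes, or 40.7%, against 20.3% of all genes. The other 25 ran from -0.32 to 0.31 in log2 fold change, and the median was 0.05 beside 0.01 for all genes. Both calls were fragile. That of Pfkl ended without any 1 of the control replicates (0.15, 0.129 and 0.0585) or without 4 h replicate 1 or 3 (0.144 and 0.0885). That of Ldha ended without control replicate 2 or 3 (0.226 and 0.167), without 4 h replicate 1 or 2 (0.171 and 0.154) and with the replicate number as a block (0.0524). Vegfa stood at -0.23 ± 0.07 (SE; limma adjusted p = 0.0976; 0.0466 after a further quantile normalization).

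Between 70 min and 4 h, a comparison that uses the same 70 min arrays, 8 of the 27 changed, 29.6% beside 7.63% of all genes (4.48% higher and 3.15% lower). Among the brighter genes alone 7 of 24 members were called and 1592 genes in all, more than the 1386 called when all genes were tested. The groups did not overlap for 8 genes, against 21.0% of all genes. Of the 12 genes called at 70 min, 7 moved back in the opposite direction by this test. The 12 were picked by their values on the same 70 min arrays, which by itself favours a move back. Egln3 fell by 0.90 (SE 0.15; limma adjusted p = 0.000952), Slc16a3 by 0.90 (SE 0.13; 0.000279) and Egln1 by 0.34 (SE 0.08; 0.0125; 0.0625 without 4 h replicate 2). Ndrg1 rose by 0.54 ± 0.12 (SE; 0.00805), Pfkm by 0.49 ± 0.10 (0.00427), Eno2 by 0.44 ± 0.11 (0.0242) and Adm by 0.40 ± 0.10 (0.0211). Vegfa, not called at 70 min, fell by 0.26 (SE 0.07; 0.0346). By contrast the step was -0.10 ± 0.10 for Pfkl, -0.04 ± 0.09 for Ldha, -0.05 ± 0.10 for Pfkp and -0.09 ± 0.07 for Aldoa (limma adjusted p = 0.505 to 0.868). For Bnip3l, lower at 70 min, it was 0.07 ± 0.08 (limma adjusted p = 0.668). At 4 h Bnip3l stood at -0.22 ± 0.08 against control, all arrays below it (limma adjusted p = 0.162). Leaving out 70 min replicate 2 or 3 ended the calls of Adm (0.0566 and 0.0942) and Eno2 (0.0864 and 0.144), as did leaving out 4 h replicate 3 (0.0707 and 0.0509), 4 h replicate 1 for Adm (0.0755) and 4 h replicate 2 for Eno2 (0.0843). The call of Vegfa ended without 70 min replicate 1 or 3 (0.0656 and 0.154) or 4 h replicate 2 or 3 (0.0552 and 0.115). Counts fell to 5 without 70 min replicate 3, 4 h replicate 2 or 4 h replicate 3, and to 0 without the 3 arrays of highest median, where 1 array at 70 min remains.

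At 8 h none of the 27 passed against control by limma (0.0275% of all genes did, 0.0220% higher and 0.00550% lower), and 1 had an unadjusted p under 0.05, Eno2 at 0.27 ± 0.11 (SE; limma adjusted p = 0.906). Log2 fold changes ran from -0.19 for Slc16a3 to 0.27 for Eno2. In 1 gene, Epas1, or 3.70%, the 8 h arrays did not overlap control, against 13.2% of all genes. From 4 h to 8 h Eno2 rose by 0.50 ± 0.11 (SE; limma adjusted p = 0.0204) and Ldha fell by 0.33 (SE 0.09; limma adjusted p = 0.0495), 7.41% of the 27 beside 3.51% of all genes (1.97% higher and 1.54% lower). Among the brighter genes alone 2 of 24 members were called and 813 genes in all, more than the 637 called when all genes were tested. The groups did not overlap for 5 genes, or 18.5%, against 18.7% of all genes. The call of Eno2 ended without 4 h replicate 1 or 3 (0.0618 and 0.0623) or 8 h replicate 1 or 2 (0.101 and 0.0565). That of Ldha ended without 4 h replicate 1 or 2 (0.144 and 0.175), without any 1 of the 8 h replicates (0.132, 0.177 and 0.0747) and with the replicate number as a block (0.0563). Pfkl, at -0.27 ± 0.10 (SE; 0.162), passed without 8 h replicate 1 (0.0272).

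Genes on either side of these in the same pathways were described from lists of related genes. For glucose entry, 2 of 7 measured genes rose at 70 min and 1 fell, beside 14.6% of all genes called at that time (6.76% higher and 7.81% lower). Hk2, a hexokinase gene, rose by 1.16 ± 0.09 (SE; limma adjusted p = 1.23e-07) and the transporter gene Slc2a1 by 0.61 ± 0.09 (0.000147), while Slc2a12, another transporter gene, fell by 1.73 (SE 0.11; 2.63e-08). At 4 h Hk2 and Slc2a1 stood at -0.09 ± 0.09 and 0.25 ± 0.09 (limma adjusted p = 0.712 and 0.17), and Slc2a3 was the 1 called gene, lower by 0.55 ± 0.11 (0.00894; 0.0619 without control replicate 3). Of 15 further glycolysis isoforms and regulators 2 fell at 70 min and 0 rose, close to the 14.6% called among all genes. They were Pfkfb2, the cardiac form of the phosphofructokinase activator enzyme, by 0.54 (SE 0.14; limma adjusted p = 0.0113; 0.0609 without control replicate 1 and 0.058 without 70 min replicate 2), and Galm, the galactose mutarotase gene, by 0.50 (SE 0.10; 0.00218). None of the 15 was called by limma at 4 h, where 1 had an unadjusted p under 0.05.

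Of 19 genes for the fate of pyruvate and lactate, 2 rose and 3 fell at 70 min, beside 14.6% of all genes called. The monocarboxylate transporter genes Slc16a7 and Slc16a1 rose by 0.64 ± 0.16 and 0.57 ± 0.10 (SE; limma adjusted p = 0.0138 and 0.000865), the former not passing without control replicate 3 (0.062) or 70 min replicate 1 (0.057). The pyruvate dehydrogenase kinase genes Pdk4 and Pdk2 fell by 0.73 (SE 0.13) and 0.70 (SE 0.07; limma adjusted p = 0.00103 and 3.35e-06), while Pdk1 and its 0.18 did not pass. None of the 19 was called at 4 h by limma (1 at an unadjusted p under 0.05).

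Among 11 measured partners and regulators of HIF, 3 fell at 70 min and 0 rose, beside 7.81% of all genes lower and 6.76% higher. Vhl, which encodes the ubiquitin ligase subunit that recognises hydroxylated HIF, stood lower by 0.38 ± 0.12 (SE; limma adjusted p = 0.0401), Arnt2, a partner subunit gene, by 0.32 ± 0.09 (0.0226) and Cited2, an antagonist of HIF coactivators, by 0.19 ± 0.06 (0.0364). These calls were weak: Vhl was not called without any 1 of the control replicates (0.0543, 0.161 and 0.0845) or 70 min replicate 2 or 3 (0.169 and 0.137), Arnt2 without control replicate 1 or 2 (0.0693 and 0.085) or 70 min replicate 2 or 3 (0.0918 and 0.0509), and Cited2 without control replicate 1 or 3 (0.124 and 0.126) or 70 min replicate 1 or 2 (0.11 and 0.131). At 4 h Cited2 was higher by 0.22 ± 0.06 (0.0485), a call lost without any 1 of the 6 arrays compared (0.0691 to 0.213) and with the replicate number as a block (0.0553).

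Of 33 other HIF target genes 6 rose and 5 fell at 70 min, or 11 of 33, beside 14.6% of all genes called, with a median of -0.01. The largest changes were in Edn1, the endothelin gene, which fell by 2.04 (SE 0.11; limma adjusted p = 3.94e-09), Angpt2, a vessel-destabilising ligand gene, by 1.36 (SE 0.12; 1.03e-06), and Ccng2, an atypical cyclin gene, by 0.99 (SE 0.12; 3.05e-05), and in Hmox1, heme oxygenase, which rose by 1.103 ± 0.080 (8.83e-08) and is also a target of the antioxidant factor NRF2. At 4 h 2 rose and 3 fell, beside 3.85% of all genes called, Edn1 by 1.20 (SE 0.11; 9.73e-06), Angpt2 by 0.72 (SE 0.12; 0.00256) and Wsb1 by 0.43 (SE 0.11; 0.0374), against a rise of Hmox1 by 0.52 ± 0.08 (0.00106). The call of Wsb1 ended without any 1 of the control replicates (0.172, 0.0663 and 0.11), without 4 h replicate 1 or 3 (0.183 and 0.0823) and with the replicate number as a block (0.0557). At 8 h limma called 0 genes in the other 4 related lists, where 1 of the 15 glycolysis genes, 1 of the 19 pyruvate and lactate genes and 0 of the rest had an unadjusted p under 0.05. Hmox1 was the 1 called gene of the 33 at 8 h, at 0.64 ± 0.08 (SE; limma adjusted p = 0.00152; 0.0825 with a constant prior variance). Without the 3 arrays of highest median, Slc2a3 (0.0545) and Wsb1 (0.0869) at 4 h, and Slc16a1 (0.0525), Galm (0.188), Pfkfb2 (0.27), Cited2 (0.0514), Arnt2 (0.297) and Vhl (0.658) at 70 min, did not pass.

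**Figure D4:**
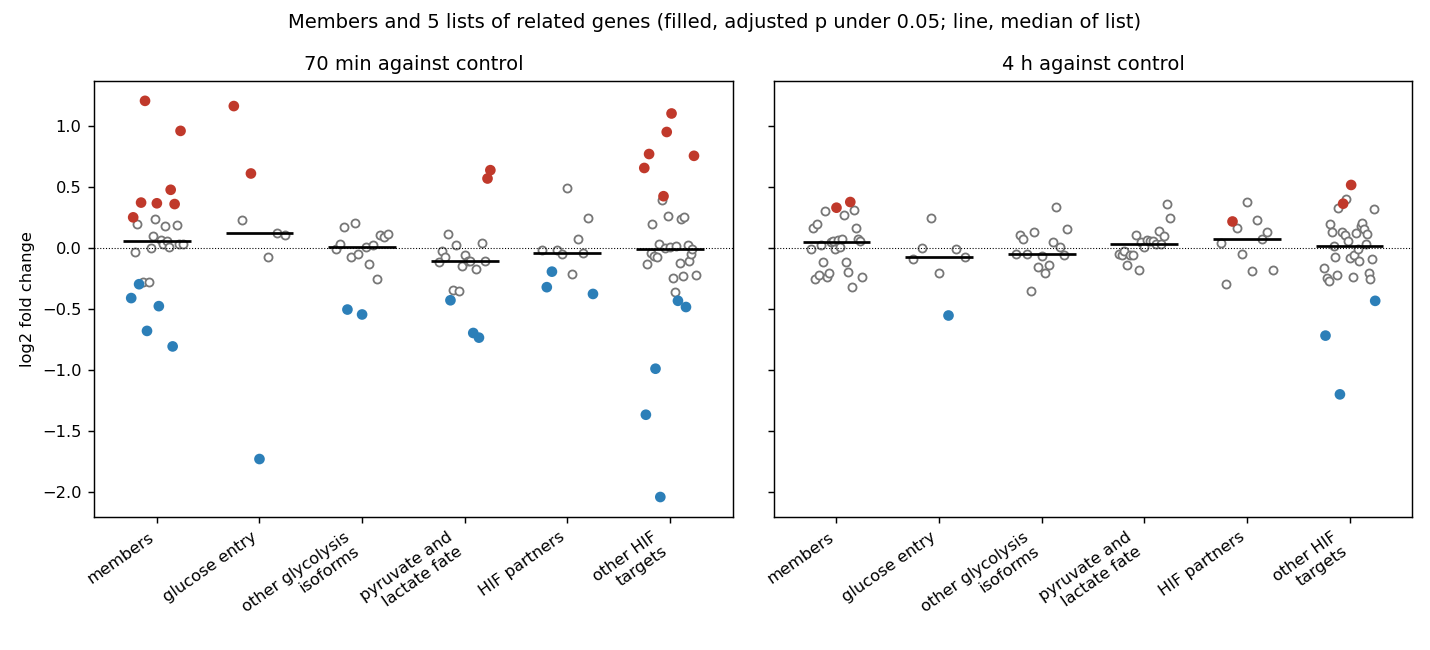
Log2 fold change (y axis) at 70 min and 4 h of the 27 members and of the genes in 5 related lists (x axis), with 1 point a gene, filled where the limma adjusted p is under 0.05 (red higher, blue lower), and a line at each list's median. Called genes lie on both sides of 0 at 70 min in the members, in glucose entry, in pyruvate and lactate fate and among the other HIF targets, with list medians from -0.11 to 0.12.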

How the data were processed

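Gene expression was measured in 12 samples, each on its own single-colour array, after amplification and biotin labelling of RNA as the labels' protocols describe. RMA values came from Affymetrix Expression Console (1.3.1.187 according to the submitters' processing notes), and the authors deposited them as 1 table of 36685 probes. No scale is stated for the deposited values, which were read as log2 because of their range of 1.19 to 13.63. RMA removes differences in total RNA and compresses folds near background. A genome build for the probes is not given in the sources used here.

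Of the probes, 18511 carried 1 symbol in the platform's annotation, 575 several and 17599 were unlisted; 18166 genes remained, and columns of other series were 0. Group means were estimated over the 12 arrays together by limma 3.58.1 under R 4.3.3 (eBayes with a trend, 8 residual degrees of freedom), and p-values were adjusted by Benjamini-Hochberg over all genes within each of 5 comparisons. A gene was called at an adjusted p under 0.05. The number of arrays limits the precision, and the median SE was 0.13. The calculation was tested on simulated data.

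The members, related lists, markers and alternatives were chosen with earlier results of these data known. Array values are given for members called against control with a change of at least 0.4, and for Hif1a, Pgk1 and Ldha always; of each related list up to 4 called genes with the largest change are named, with Hk2 and Slc2a1 always. The promoters printed were chosen after the values were seen. Alternatives are given in the closing section. Figures were drawn with matplotlib 3.10.9.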

Additional observations from a re-analysis of the deposited data

Results flagged for a closer look

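The change from control differed between 70 min and 4 h, by the limma test of that difference, in 8 genes. The log2 difference, 4 h minus 70 min, was -0.90 for both Egln3 and Slc16a3, -0.34 for Egln1 and -0.26 for Vegfa. It was 0.54 for Ndrg1, 0.49 for Pfkm, 0.44 for Eno2 and 0.40 for Adm. Of the 8, 7 had been called at 70 min on the same 70 min arrays, and that selection by itself favours a move back. The difference 8 h minus 4 h was 0.50 for Eno2 and -0.33 for Ldha. Limma adjusted p-values ran from 0.000279 for Slc16a3 to 0.0495 for Ldha. Groups of 3 arrays are too small for a test of single outlying arrays, and none was made.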

How the results depend on the processing

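Of 135 pairs of a gene and a comparison, 24 were called and 104 were called neither here nor under any alternative. No sign turned in the pairs called at least once (0 of their values), 85 values lost a call and 12 gained one, and 3 of the 24 calls held in each alternative that tested the gene, Pfkm and Slc16a3 at 70 min in 15 and Egln3 in 14, not being among the brighter genes.

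Asking also for a fold of at least 1.5, the genes called were 4 at 70 min, 0 at 4 h, 2 for 4 h against 70 min and 0 for 8 h against 4 h. Without the 3 arrays of highest median, which leaves 1 array at 70 min taken to vary like the other groups, they were 5, 1 and 0 for 70 min, 4 h, and 4 h against 70 min. Without the trend in the prior variance they were 0 at 4 h and 0 for 8 h against 4 h. With the compared groups alone they were 1 at 4 h, 5 for 4 h against 70 min and 1 for 8 h against 4 h. A further quantile normalization gave 5 at 4 h. The cause of these shifts was not tested, beyond the smaller number of arrays or the added threshold. Leaving out 1 array at a time gave 7 to 11 at 70 min, 0 to 1 at 4 h, 0 to 0 at 8 h, 5 to 7 for 4 h against 70 min and 0 to 1 for 8 h against 4 h. All genes called at 70 min numbered 2647, 1751 without control replicate 1 and 1046 without the 3 arrays of highest median.

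The replicate number as a block gave 12 genes at 70 min, 1 at 4 h, 0 at 8 h, 8 for 4 h against 70 min and 1 for 8 h against 4 h. Deviations from group means correlated between same-numbered arrays from -0.322 to 0.24 over 18 pairs. Between differently numbered arrays the range was -0.405 to 0.403 over 36 pairs, so the numbers were not taken to pair the samples.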
